A study of Mus musculus with 24 samples.

Results

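The cytokine receptors of liver-resident invariant natural killer T (LiNKT) cells were followed in NOD/ShiLtJ mice that were left untreated or given αGalCer/CD1d-NPs. The 10 genes were chosen by name from the 55401 genes in the count tables: *Il2rb*, *Il2ra*, *Il2rg*, *Il7r*, *Il18r1*, *Il12rb1*, *Il12rb2*, *Il17rb*, *Il21r* and *Il27ra*. LiNKT cells are T cells with a semi-invariant receptor for lipids held by CD1d. They were sorted from liver as live TCRβint cells that bind the αGalCer/CD1d tetramer.

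The nanoparticles (NPs) have an iron oxide core, coated with mouse CD1d that holds α-galactosylceramide (αGalCer), a glycolipid antigen of iNKT cells. Treated mice received 20 µg of protein per dose intravenously, 2 doses per week for 5 weeks, and cells were taken a few days after the last dose. Single-cell RNA (SmartSeq2) came from 3 male mice per group aged 13 to 15 weeks. Chromatin (the ATAC library of a 10X multiome) came from males of that same age range, 5 of them untreated and 4 treated. The paper's figure legend for the multiome instead names vehicle for its controls and a younger age. Its methods also mention Cys-NPs for some control mice, without saying which, and call the controls of the assays used here untreated. Methylation (whole genome bisulfite sequencing) came from 7 untreated females of 17 weeks and from 4 treated mice of 16 weeks, whose sex is not given in the sources used here. The mice of a group were pooled in every file, so nothing below was tested between mice. Intervals cover counting error only, and the cells of a group are not replicates.

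The receptors fall into a few families. IL-2 and IL-15 share the β chain (Il2rb) and the common γ chain (Il2rg), which IL-7 and IL-21 also use beside their own chains, Il7r and Il21r. Il2ra raises the affinity for IL-2. Il12rb1 and Il12rb2 form the IL-12 receptor, Il18r1 binds IL-18 together with Il18rap, Il17rb is the chain that binds IL-25, and Il27ra is the IL-27 chain that pairs with gp130 (Il6st). In iNKT cells, IL-15 acting through Il2rb is known for maintaining the T-bet+ subset, and IL-12 with IL-18 for eliciting IFN-γ without an antigen.

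The SmartSeq2 values rest on the 273 untreated and 251 treated cells that have a sub-cluster in the study's published annotation, with 172559865 and 149084200 counts. The median cell held 635257 counts over 861 genes in the untreated group and 599896 counts over 850 genes in the treated group. The sort was checked on T cell genes: *Cd3e*, part of the CD3 complex, was read in 81.3% of untreated and 79.7% of treated cells, and *Zbtb16*, which encodes PLZF, in 4.40% and 6.37%. *Trac* was read in 83.9% of untreated and 74.1% of treated cells. *Trav11* and *Traj18*, segments that most LiNKT TCRα chains use in the paper, were read in 20.5% and 19.5%, and in 24.2% and 24.3%. The 8 iNKT and T cell markers summed to 4677 counts per 1000000 counts (CPM) in untreated cells, against 5049 CPM in treated cells. Of these, *Trac*, *Trbc1* and *Trav11* were lower in treated cells and the rest higher, *Cd3g* most in CPM (1525 and 1780). Markers of other cells differed more. Those of macrophages summed to 0.0116 CPM in untreated cells, against 1793 CPM in treated cells, those of hepatocytes to 0 and 82.3 CPM, and those of NK cells (*Ncr1*, *Klra8* and *Klra4*, which some iNKT cells also express) to 235 and 861 CPM. A read of a macrophage, hepatocyte or B cell marker was found in 3 untreated and 14 treated cells, and all 14 carried the label of sub-cluster 2. The 3 ILC2 markers were at 0 in untreated cells and summed to 0.456 CPM in treated cells. For some results, values without cells that carry such marker reads are given below. The part of these cells in the results was otherwise not tested.

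The summed level of 9 of the 10 receptors was lower in treated than in untreated cells. It was lower by 2-fold or more for 4 of them, *Il18r1*, *Il7r*, *Il2ra* and *Il17rb*, and higher by 2-fold for 0. Over all genes with at least 10 summed counts, 17.2% were lower and 20.1% higher by 2-fold or more, many of them read in a handful of cells. Of the 9 receptors found in 5% or more of either group's cells, 3 were lower by 2-fold, against 7.9% of all genes read that widely, of which 7.94% were higher. The median log2 ratio of treated over untreated CPM (each plus 1 CPM) was -0.92 for the 10 receptors and 0.02 for all genes. The count depended on the cells taken. Within sub-cluster 2 of the published annotation alone, with 61 treated cells, the receptors lower by 2-fold were 5 and partly others (*Il7r*, *Il17rb*, *Il12rb2*, *Il21r* and *Il27ra*) and 0 were higher, where 33.9% of all genes were lower and 19.2% higher. The 61 cells include the 14 with macrophage, hepatocyte or B cell marker reads. Without such cells *Il2ra* was also past 2-fold there, as given below. Within sub-cluster 4 alone, 4 receptors (*Il7r*, *Il12rb1*, *Il18r1* and *Il12rb2*) were higher and *Il21r* lower, where 37.5% of all genes were higher and 17.9% lower, so that the receptors' share there was near that of all genes. At 1.5-fold over all annotated cells, 7 receptors were lower and 0 higher, against 24.5% and 27.3% of all genes. Without cells with NK marker reads, 7 were lower by 2-fold and 0 higher, against 25% and 21.8% of all genes. That setting leaves out 66 of 273 untreated and 134 of 251 treated cells. Of the treated ones, 102 are of sub-cluster 4, so the mixture of sub-clusters changes with it. The fold was a description: with 1 pooled sample per group it has no replicate check.

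**Figure D1:**
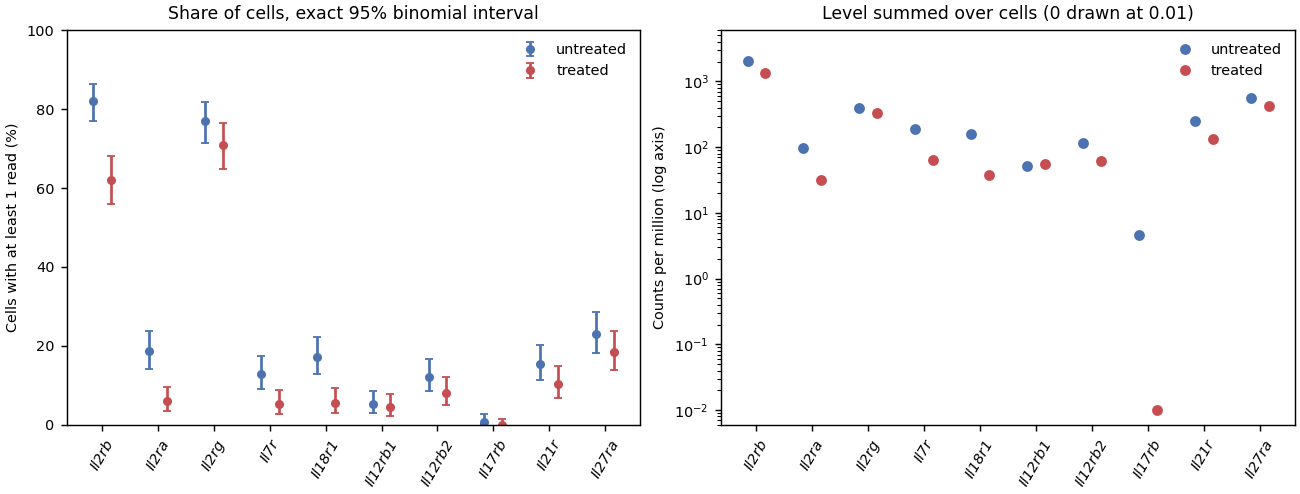
Cytokine receptor genes in untreated (blue) and treated (red) LiNKT cells. Left, percent of cells with at least 1 read, with exact 95% binomial intervals (273 untreated and 251 treated cells); right, summed CPM on a log axis, with the 0 of Il17rb in treated cells drawn at 0.01. The intervals of the share are apart for Il2rb (82.1% and 62.2%), Il2ra, Il18r1 and Il7r, and overlap for the other 6 genes; for Il7r they overlap when the cells without a sub-cluster are included.

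The chains shared by IL-2 and IL-15 were the most widely read. *Il2rb* (ENSMUSG00000068227.9, chr15:78479256-78495271, minus strand) had 2042 CPM in untreated cells, against 1324 CPM in treated cells. It was read in 224 of 273 untreated cells (82.1%, 77.0 to 86.4) and in 156 of 251 treated cells (62.2%, 55.8 to 68.2), so that these intervals lay apart. Among the cells with reads the median was 2192 CPM in the untreated and 1514 CPM in the treated group. The log2 ratio of the summed level was -0.62, and -1.27 without cells that carry a read of an NK cell marker, which leaves out 134 of 251 treated cells, 102 of them from sub-cluster 4, the treated sub-cluster with the highest *Il2rb*. In both lanes of the flow cell fewer treated cells carried reads: 58.4% against 78.3% in lane 1, and 70.5% against 89.9% in lane 2. The lanes are inferred from a number in the cell names, which no source used here calls a lane.

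*Il2rg*, the common γ chain (ENSMUSG00000031304.18, chrX:101264378-101268255, minus strand), differed least among the widely read genes. It had 390 CPM in untreated cells, against 328 CPM in treated cells, a log2 ratio of -0.25. Reads were found in 76.9% (71.5 to 81.8) of untreated and 70.9% (64.9 to 76.5) of treated cells, with overlapping intervals. In lane 2 the shares were 86.5% and 70.5%, in lane 1 72.3% and 71.1%.

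*Il2ra*, the α chain CD25 (ENSMUSG00000026770.5, chr2:11642807-11693193, plus strand), was read in few cells of either group. It had 95.6 CPM in untreated cells, against 32.1 CPM in treated cells, a log2 ratio of -1.55. A single treated cell held 45.1% of the treated reads. Without the cell with most reads in each group the log2 ratio was -2.19, and without cells carrying macrophage, hepatocyte or B cell marker reads it was -2.31. The share of cells was 18.7% (14.2 to 23.8) in untreated and 5.98% (3.38 to 9.67) in treated cells. The shares were lower in treated cells in both lanes, with overlapping intervals in lane 2 (15.2 to 33.8 and 2.88 to 15.99), whereas the log2 ratio of the level was -2.64 in lane 1 and -0.38 in lane 2. Within sub-clusters 2 and 4 of the published annotation, which are described further on, the log2 ratio was -0.18 in each. In sub-cluster 2 it was -1.31, past 2-fold, once the cells with macrophage, hepatocyte or B cell marker reads were left out.

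*Il7r*, the IL-7 receptor α chain (ENSMUSG00000003882.5, chr15:9505788-9530176, minus strand), had 191 CPM in untreated cells, against 63.7 CPM in treated cells, a log2 ratio of -1.57. It was read in 35 untreated cells (12.8%, 9.09 to 17.4) and 13 treated cells (5.18%, 2.79 to 8.69). Where it was read, the median level was no lower: 813 CPM in untreated cells, against 1080 CPM in treated cells. The log2 ratio was -1.25 in lane 1 and -2.19 in lane 2. The intervals of the share lay apart in the annotated cells, but overlapped with all cells of both tables (8.74 to 16.7 and 3.28 to 9.05) and in each lane alone. *Il21r* (ENSMUSG00000030745.9, chr7:125603429-125633570, plus strand), the receptor of IL-21, had 251 and 132 CPM, a log2 ratio of -0.93, and was read in 15.4% and 10.4% of cells with overlapping intervals. Within sub-cluster 2 its log2 ratio was -1.32 and within sub-cluster 4 -1.55, past 2-fold in both.

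Of the receptors for inflammatory cytokines, *Il18r1* (ENSMUSG00000026070.15, chr1:40465552-40500854, plus strand) differed most among those read in at least 5% of cells. It had 160 CPM in untreated cells, against 37.3 CPM in treated cells, a log2 ratio of -2.07. Reads were found in 47 untreated cells (17.2%, 12.9 to 22.2) and 14 treated cells (5.58%, 3.08 to 9.18). The intervals of the share overlapped in lane 1 alone (11.7 to 23.1 and 3.64 to 11.8). The log2 ratio was -1.48 in lane 1 and -4.45 in lane 2, the latter with reads in 16 of 89 untreated and 2 of 78 treated cells. It was -0.93 within sub-cluster 2, short of 2-fold, or -0.56 without those marker cells, and 2.80 within sub-cluster 4, where 1 of 43 untreated cells had reads. *Il18rap*, the second IL-18 chain, had 228 CPM in untreated cells, 183 CPM in treated cells and a log2 ratio of -0.31.

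Both IL-12 receptor chains were sparse. *Il12rb2* (ENSMUSG00000018341.12, chr6:67291318-67376188, minus strand), the signalling chain, had 117 and 61.6 CPM, a log2 ratio of -0.91. Its shares were 12.1% in untreated and 7.97% in treated cells, with overlapping intervals. Without cells that carry an NK marker read its log2 ratio was -3.82, but most cells left out there are of sub-cluster 4, which held 16 of the 20 treated cells with *Il12rb2* reads, and 66 of the 273 untreated cells are left out. The log2 ratio was -0.25 in lane 1 and -1.53 in lane 2. *Il12rb1* (ENSMUSG00000000791.9, chr8:70808449-70821424, plus strand), shared with the IL-23 receptor, had 52.3 and 54.9 CPM, a log2 ratio of 0.07. It was read in 14 untreated and 11 treated cells, and its log2 ratio was 0.67 in lane 1 and -0.52 in lane 2, so that no direction could be given. Within sub-cluster 2 it had 62.1 and 59.6 CPM, and within sub-cluster 4 5.40 and 65.4 CPM, with reads in 2 of 43 untreated and 7 of 133 treated cells.

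*Il27ra* (ENSMUSG00000005465.9, chr8:84030294-84042589, minus strand) had 557 CPM in untreated cells, against 417 CPM in treated cells, a log2 ratio of -0.42. Reads were found in 23.1% and 18.3% of cells with overlapping intervals. In lane 1 the share was 19.02% in untreated and 20.8% in treated cells, and in lane 2 31.5% and 12.8%. Its log2 ratio was 0.10 in lane 1, -1.82 in lane 2 and -1.83 within sub-cluster 2. *Il17rb* (ENSMUSG00000015966.17, chr14:29996135-30008896, minus strand) was read in 2 untreated cells and in 0 of 251 treated cells, which allows a share of up to 1.195% (3 cells of 251). Among all 282 treated cells of the table, 1 had a read, so the 0 holds for the annotated cells. With the limit of 3 counts that a count of 0 allows in the treated group, its summed level was at least 230-fold lower in the annotated cells, but a single cell of sub-cluster 3, which holds no treated cell, had 80.8% of the 798 untreated counts. Within sub-cluster 2, with 153 untreated counts in 1 cell, it was at least 11.8-fold lower. With 2 cells against 0, a difference in the share was not detectable. *Il12rb2* overlaps *Serbp1* and *Il17rb* overlaps *Actr8*, both with reads, so that their counts could include reads of the neighbour.

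**Figure D2:**
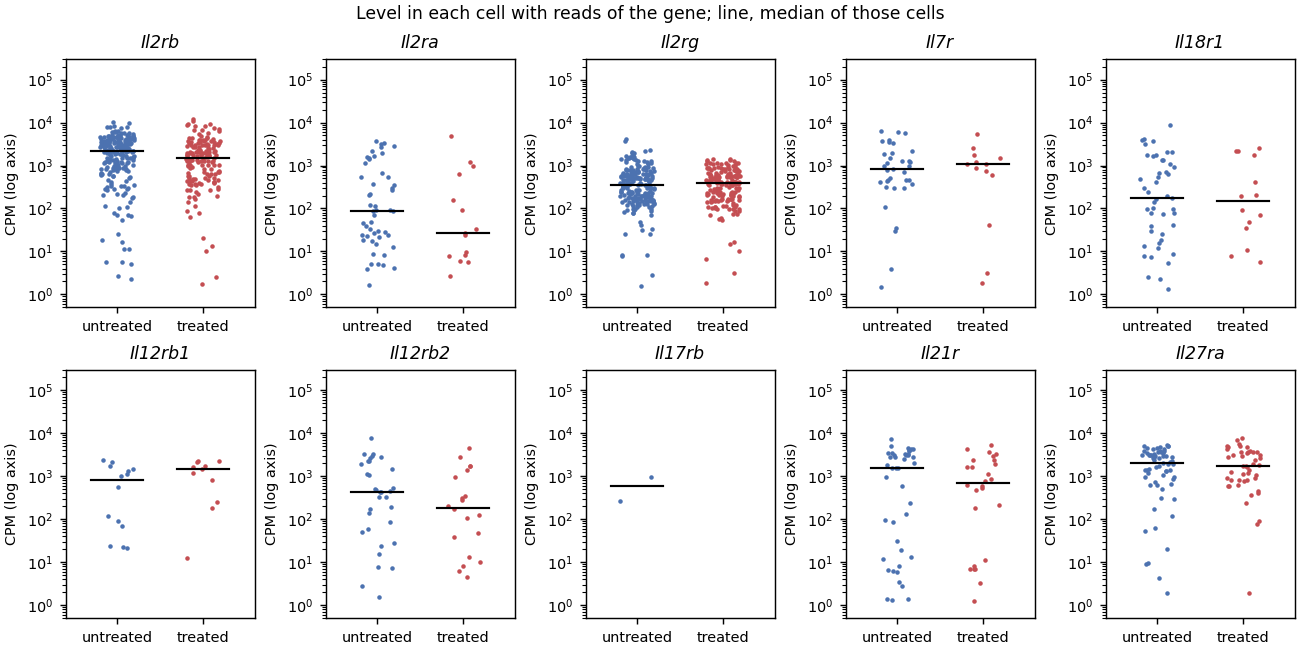
CPM (log axis) of each cell with at least 1 read of the gene, in untreated (blue) and treated (red) cells; the line is the median of those cells. Il2rb and Il2rg were read in most cells, with medians of 2192 and 357 CPM in untreated cells, whereas the other genes were spread over few cells and several orders of magnitude.

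Set per exon length (TPM, counts per exon base scaled to the same total in both groups), *Il2rb* stood highest in untreated cells with 1262 TPM. *Il2rg* and *Il27ra* followed with 433 and 423 TPM, *Il21r* with 200 TPM and *Il7r* with 109 TPM. *Il18r1* had 87.9, *Il12rb2* 81.5, *Il2ra* 44.4, *Il12rb1* 33.8 and *Il17rb* 3.31 TPM. The first 4 places were the same in treated cells (797, 355, 308 and 102 TPM). *Il18r1* there had 19.99 TPM, below *Il12rb2*, *Il7r* and *Il12rb1* with 41.9, 35.3 and 34.5 TPM, and above *Il2ra* with 14.5 TPM. There is no spread over samples to tell neighbours in these orders apart.

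The share of cells with 3 or more of the receptors was 52.0% in untreated and 25.5% in treated cells, and 2.56% and 7.97% of cells carried none. The chains of the IL-2 receptor were found together in numbers of cells close to the product of their shares. *Il7r* and *Il2rg* were both read in 30 untreated and 11 treated cells (26.9 and 9.22 by the product). *Il21r* and *Il2rg* were both read in 36 and 20 cells (32.3 and 18.4). The pairs without an IL-2 receptor chain were found in a few cells each. *Il2rb* and *Il2rg* were both read in 175 untreated cells (172 by the product) and in 112 treated cells (111 by the product). Both were thus read in 64.1% (58.1 to 69.8) of untreated and 44.6% (38.4 to 51.0) of treated cells. *Il2ra* and *Il2rb* were both read in 41 untreated and 8 treated cells (41.8 and 9.32 by the product). *Il18r1* and *Il18rap* were both read in 8 untreated cells (5.16 by the product) and 3 treated cells (1.28), and *Il12rb1* and *Il12rb2* in 3 and 1 cells (1.69 and 0.876). *Il17rb* and *Il17ra* were both read in 1 untreated cell (0.154 by the product). *Il27ra* was read in 63 untreated cells, of which 1 carried *Il6st*, a gene read in 0.366% of untreated and 1.59% of treated cells. Missed reads lower all such counts. Of the 959 genes read in at least 20% of cells, none had a Pearson correlation of 0.3 or more with *Il2rb*, *Il2rg* or *Il27ra* over the 524 cells, the closest being *Tmsb10* with *Il2rb* (r = 0.23).

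The shares and levels of the receptors differed between sub-clusters, often with overlapping intervals of the share. The published annotation places 228 untreated and 61 treated cells in sub-cluster 2, 43 and 133 in sub-cluster 4, and 57 treated cells in sub-cluster 5, which has no untreated cell and is the study's TR1-like subset. The other 2 untreated cells are in sub-cluster 3, which has no treated cell. The annotation lists the sub-cluster of each cell as a predicted label. The sub-clusters rest on gene expression, so their differences are a description. *Il2rb* had 1912 CPM in untreated cells, against 1092 CPM in treated cells of sub-cluster 2, and 2738 and 1834 CPM in sub-cluster 4. Without the 14 cells with macrophage, hepatocyte or B cell marker reads, treated sub-cluster 2 had 1431 CPM. In sub-cluster 5 *Il2rb* had 448 CPM and was read in 36.8% (24.4 to 50.7) of cells. That interval lay below those of the other sub-clusters, except that it overlapped the one of treated sub-cluster 2 (54.1%, 40.8 to 66.9). Without the 14 marker cells the share in treated sub-cluster 2 was 70.2% (55.1 to 82.7), and its interval no longer overlapped that of sub-cluster 5. *Il2rg* in sub-cluster 5 was read in 70.2% of cells, against 57.4% to 81.4% elsewhere, where the low end, treated sub-cluster 2, was 68.1% without the marker cells.

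In untreated mice *Il18r1* and *Il7r* were read mostly in sub-cluster 2. *Il18r1* was read in 20.2% of untreated and 9.84% of treated cells there, in 2.33% and 5.26% of cells of sub-cluster 4, and in 1 of 57 cells of sub-cluster 5 with 3 counts. *Il7r* was read in 14.5% of untreated and 6.56% of treated cells of sub-cluster 2 and in 0 of 43 untreated and 9 of 133 treated cells (6.77%) of sub-cluster 4. It was read in 0 of 57 cells of sub-cluster 5, which allows a share of up to 5.26%. *Il2ra* had its highest share in untreated sub-cluster 2, 21.5% (16.3 to 27.4), and was read in 12.3% (5.08 to 23.7) of sub-cluster 5.

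*Il21r* and *Il27ra* had their highest shares outside sub-cluster 2. *Il21r* was read in 27.9% (15.3 to 43.7) of untreated cells of sub-cluster 4, against 13.2% (9.06 to 18.2) in sub-cluster 2, and in 5.26% of sub-cluster 5. *Il27ra* was read in 31.6% (19.9 to 45.2) of sub-cluster 5, with 637 CPM, close to the 641 CPM of untreated sub-cluster 4. Untreated sub-cluster 2 had 532 CPM, and treated sub-clusters 2 and 4 had 149 and 426 CPM. Its share in treated sub-cluster 2 was 9.84%, or 12.8% (4.83 to 25.7) without the 14 marker cells. Sub-cluster 5 was the only treated one in which the share of *Il27ra* was not below that of untreated sub-cluster 2 (23.2%), although the intervals overlap.

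**Figure D3:**
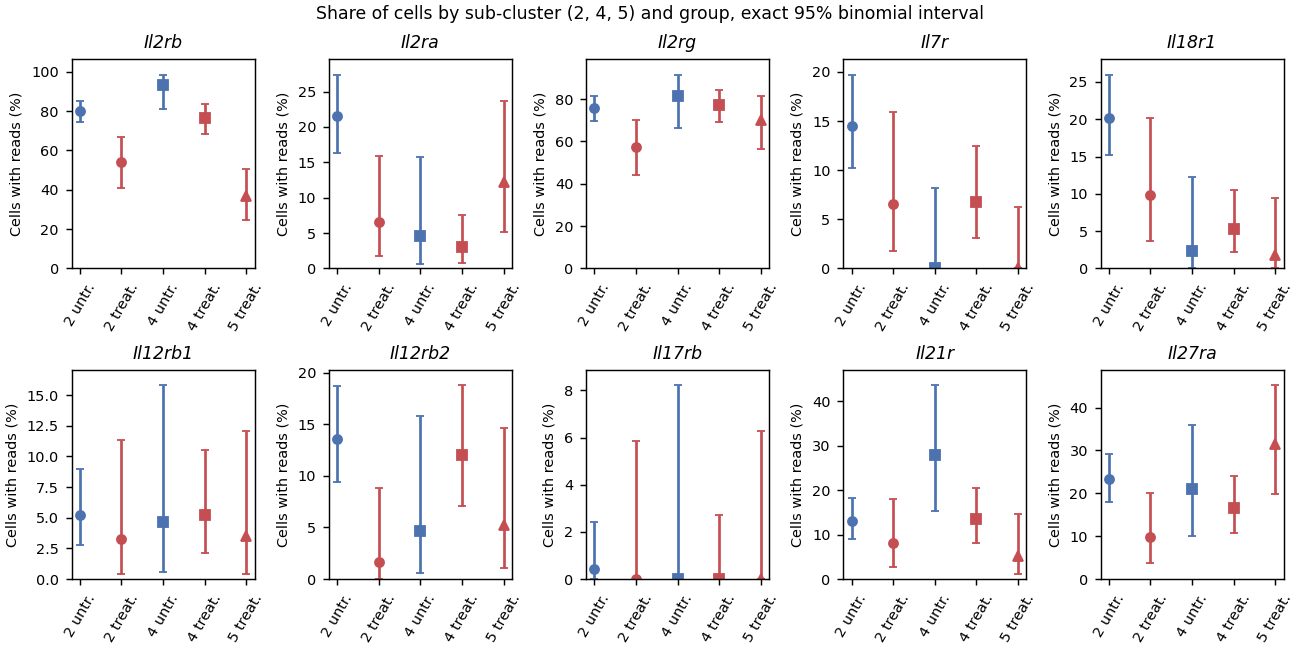
Percent of cells with at least 1 read of each receptor gene in sub-clusters 2, 4 and 5 of untreated (blue) and treated (red) LiNKT cells, with exact 95% binomial intervals; axes differ between panels. Sub-cluster 5 has the lowest share of Il2rb (36.8%), with an interval that overlaps that of treated sub-cluster 2. It has the highest share of Il27ra (31.6%), with an interval that overlaps those of the others. Il7r has no read in sub-cluster 5 and none in untreated sub-cluster 4 (0 of 43 cells).

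Partner chains and genes downstream of the receptors were higher in some cases and lower in others, many of them read in few cells. Of 18 further receptor chains, 16 had at least 10 summed counts, 5 were higher and 5 lower by 2-fold in treated cells, and their median log2 ratio was -0.26. Over all genes 20.1% were higher and 17.2% lower. *Il4ra*, the IL-4 receptor, had 183 and 50.5 CPM (log2 ratio -1.84) and was read in 10.99% and 4.38% of cells. *Il15ra*, which presents IL-15 to Il2rb, had a log2 ratio of 4.04, but was read in 1.10% and 1.195% of cells, with 49.0% of the treated reads in 1 cell. *Tgfbr1* (4.04) and *Il6st* (-2.67) were likewise read in under 5% of cells.

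Of the 11 JAK and STAT genes, 2 were higher and 2 lower by 2-fold, with a median of 0.44, shares near those of all genes (20.1% higher and 17.2% lower). *Jak2*, the kinase of the IL-12 receptor, had 9.52 and 58.1 CPM (log2 ratio 2.49) and *Stat5b* 10.4 and 52.8 CPM (2.24). A single cell held 55.4% of the untreated reads of *Jak2* and 51.1% of those of *Stat5b*. *Stat5a* had a log2 ratio of -1.19, with reads in 4 untreated cells and 1 treated cell, and *Stat2* of -1.17, with reads in 11 and 7 cells. *Jak3*, the kinase bound to the common γ chain, was read in 5.86% of untreated and 12.4% of treated cells. Among 5 genes that signal below the IL-18 receptor (*Myd88*, *Irak1*, *Irak2*, *Irak4* and *Traf6*), 0 were higher and 1 lower by 2-fold, *Irak2* with a log2 ratio of -1.57. *Traf6* and *Irak4* had the highest ratios, 0.71 and 0.33.

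Of 12 feedback and target genes, 2 were higher and 2 lower by 2-fold, with a median of -0.40, again near the 20.1% and 17.2% of all genes. *Socs2*, a STAT5-induced inhibitor of cytokine signalling, had 132 and 63.6 CPM (log2 ratio -1.05), and was read in 18.7% of untreated and 5.58% of treated cells. *Dusp5*, a phosphatase induced by IL-2 family signals, had a log2 ratio of -1.08. The kinase *Pim2* had 160 and 333 CPM (1.05) and *Osm*, the cytokine oncostatin M, 3.95 and 21.9 CPM (2.21), the latter in about 1% of cells.

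Apart from *Il21*, the ligands were nearly silent. Of the 11 ligands, 3 had 10 or more counts and 2 of these were higher by 2-fold, as were 20.1% of all genes. *Il21*, the ligand of Il21r, had 0 counts in untreated and 14534 in treated cells (97.5 CPM). With the limit of 3 counts its summed level was at least 5608-fold higher, which bounds reads and not cells. By cells, *Il21* was read in 0 of 273 untreated and 26 of 251 treated cells (10.4%). Reads were found in 36.8% (24.4 to 50.7) of cells of sub-cluster 5, where *Il21r* was read in 5.26%. *Il2* had 0.151 and 3.58 CPM, with 99.6% of the treated reads in 1 cell. *Il15*, *Il7*, *Il18*, *Il12a*, *Il12b*, *Il23a*, *Il25* and *Ebi3* were at 0 in both groups.

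DNA methylation near the receptors differed between the groups in both directions. Of the 2873 regions that the authors called as differently methylated, 11 lay within 50 kb of 6 of the receptor genes, and 5 of the 11 overlapped the gene itself. Over all 21938 protein-coding genes, 16.7% had such a region within 50 kb and 6.1% one in the gene body, against 6 and 4 of the 10 receptors. Methylation was higher in treated cells in 6 of the regions, near 3 receptors (6.97% of all genes had one), and lower in 5, near 4 receptors (11.3% of all genes). Lower methylation was the commoner direction among all regions, at 69.0% of them. *Il7r*, *Il2rg*, *Il17rb* and *Il27ra* had none. These values pool all LiNKT cells of a group, so that a different mixture of sub-clusters and a difference within cells cannot be told apart, nor can age and, where it applies, sex.

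The sequences of 4 regions are shown because they lie in or next to the receptor whose RNA was described above and are short enough to be read whole or nearly so. They were read from GRCm38 (C57BL/6J, not NOD) along the strand of the gene, with CpG dinucleotides in capitals. They are the region that ends 401 bp before the *Il2rb* start (chr15:78495672-78495952), the one in *Il12rb2* that spans part of a coding exon and of an intron (chr6:67303260-67303490), the one in the last intron of *Il21r* (chr7:125631643-125631922), and the first 300 bases of the one 815 bp past the end of *Il18r1* (chr1:40501669-40501968).
Il2rb upstream region: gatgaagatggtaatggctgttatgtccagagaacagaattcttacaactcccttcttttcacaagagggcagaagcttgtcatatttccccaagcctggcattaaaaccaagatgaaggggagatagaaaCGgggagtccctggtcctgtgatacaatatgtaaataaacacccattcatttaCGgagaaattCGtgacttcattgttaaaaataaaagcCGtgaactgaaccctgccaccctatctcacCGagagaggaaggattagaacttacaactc
Il12rb2 exon and intron region: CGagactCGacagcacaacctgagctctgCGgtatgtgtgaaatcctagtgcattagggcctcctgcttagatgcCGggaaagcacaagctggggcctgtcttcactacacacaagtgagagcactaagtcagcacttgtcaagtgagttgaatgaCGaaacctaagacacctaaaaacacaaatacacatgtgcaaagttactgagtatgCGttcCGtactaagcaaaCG
Il21r last intron region: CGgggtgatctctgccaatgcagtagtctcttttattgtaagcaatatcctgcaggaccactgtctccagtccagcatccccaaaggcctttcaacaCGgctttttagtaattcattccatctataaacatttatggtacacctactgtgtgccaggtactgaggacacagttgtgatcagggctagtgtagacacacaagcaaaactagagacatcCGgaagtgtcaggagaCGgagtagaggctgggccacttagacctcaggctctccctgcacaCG
Il18r1 downstream region: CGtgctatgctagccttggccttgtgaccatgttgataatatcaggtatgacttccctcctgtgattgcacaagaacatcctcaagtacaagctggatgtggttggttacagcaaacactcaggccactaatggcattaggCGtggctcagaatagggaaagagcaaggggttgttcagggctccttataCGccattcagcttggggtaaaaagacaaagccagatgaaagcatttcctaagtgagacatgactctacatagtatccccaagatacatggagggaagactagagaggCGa

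The *Il2rb* region was sparsely methylated in both groups. Over its 12 CpG sites (each strand counted) the mean was 20.6% ± 7.95 (SD over sites) in untreated and 5.08% ± 2.19 in treated cells, lower at 12 of 12 sites. The site furthest apart had 33% and 7%, and the closest 7% and 4%. The sequence holds 5 whole CpGs, and 2 more are cut by its ends. It held none of the 6 motifs searched.

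Both regions near *Il2ra* were less methylated in treated cells. The one upstream (chr2:11625872-11626247, with its near edge 16560 bp from the gene), inside *Gm17490*, had 84.8% ± 5.72 in untreated and 50.1% ± 8.16 in treated cells over 12 sites. The one in an intron 2685 bp after the start (chr2:11644996-11645988) had 69.2% ± 20.8 and 31.0% ± 17.3 over 20 sites. All 12 and all 20 sites were lower. *Il2ra* RNA, as given above, was lower in treated cells.

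The *Il12rb2* region was almost fully methylated in untreated cells, with 96.3% ± 2.57 over 16 sites, and had 55.8% ± 8.15 in treated cells. The difference of -40.5 points was the largest among the 5 regions that were lower. The region lies 72813 bp after the start, closer to the start of *Serbp1*. The untreated sites ran from 91% to 100% and the treated ones from 40% to 66%, without overlap.

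Both *Il18r1* regions were more methylated in treated cells. The intron region 2036 bp after the start (chr1:40466648-40468529) had 26.5% ± 13.5 in untreated and 57.9% ± 20.3 in treated cells, higher at 41 of 42 sites. The region past the gene end, closer to the start of *Il18rap*, had 10.6% ± 8.15 and 49.0% ± 13.6, higher at 10 of 10 sites. Its printed sequence holds 1 match to the RUNX motif (TGTGGTT), which 9.49% of the 2033 regions of at least that length hold in their first 300 bases.

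*Il21r* had regions of both directions. The region that spans part of a UTR exon and an intron near the start (chr7:125603765-125605417) was lower, with 16.9% ± 8.82 in untreated and 4.68% ± 3.60 in treated cells over 37 sites. The region 5911 bp upstream of the gene (chr7:125597111-125597518) was higher, with 15.1% ± 11.9 and 50.4% ± 19.1 over 17 sites, and so was the region in the last intron, with 21.4% ± 5.54 and 61.9% ± 10.6 over 10 sites. The latter holds 1 match to the ETS motif (CCGGAAGT), whose CpG had 22% and 29% on its strands in untreated and 59% and 67% in treated cells. That motif is in 0.276% of the 2170 regions of at least its length. It was the rarest match of a search for 6 motifs in all 11 regions (the first 300 bases of longer ones). Besides this match and the RUNX match given above, GAS was in the upstream *Il2ra* region, the *Il21r* region near the start and the *Il12rb1* region inside *Pik3r2*. RUNX was in the upstream *Il21r* region, AP-1 in the *Il18r1* intron region, and NFAT in that region and both *Il12rb1* regions. These motifs are common. Of the 2033 regions of at least 300 bases, 12.4% hold GAS in their first 300 bases, 9.49% RUNX, 20.7% AP-1 and 30.0% NFAT. For the shorter *Il12rb1* region of 251 bases the NFAT share is 25.6%.

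Both regions near *Il12rb1* lie in other genes and closer to other start sites. The one inside *Pik3r2* (chr8:70768307-70768625) had 75.4% ± 15.2 in untreated and 90.6% ± 15.1 in treated cells over 38 sites. The one inside *Ccdc124* (chr8:70868748-70868998) had 19.7% ± 9.22 and 48.3% ± 13.6 over 37 sites. *Il12rb1* RNA differed by less than 2-fold.

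**Figure D4:**
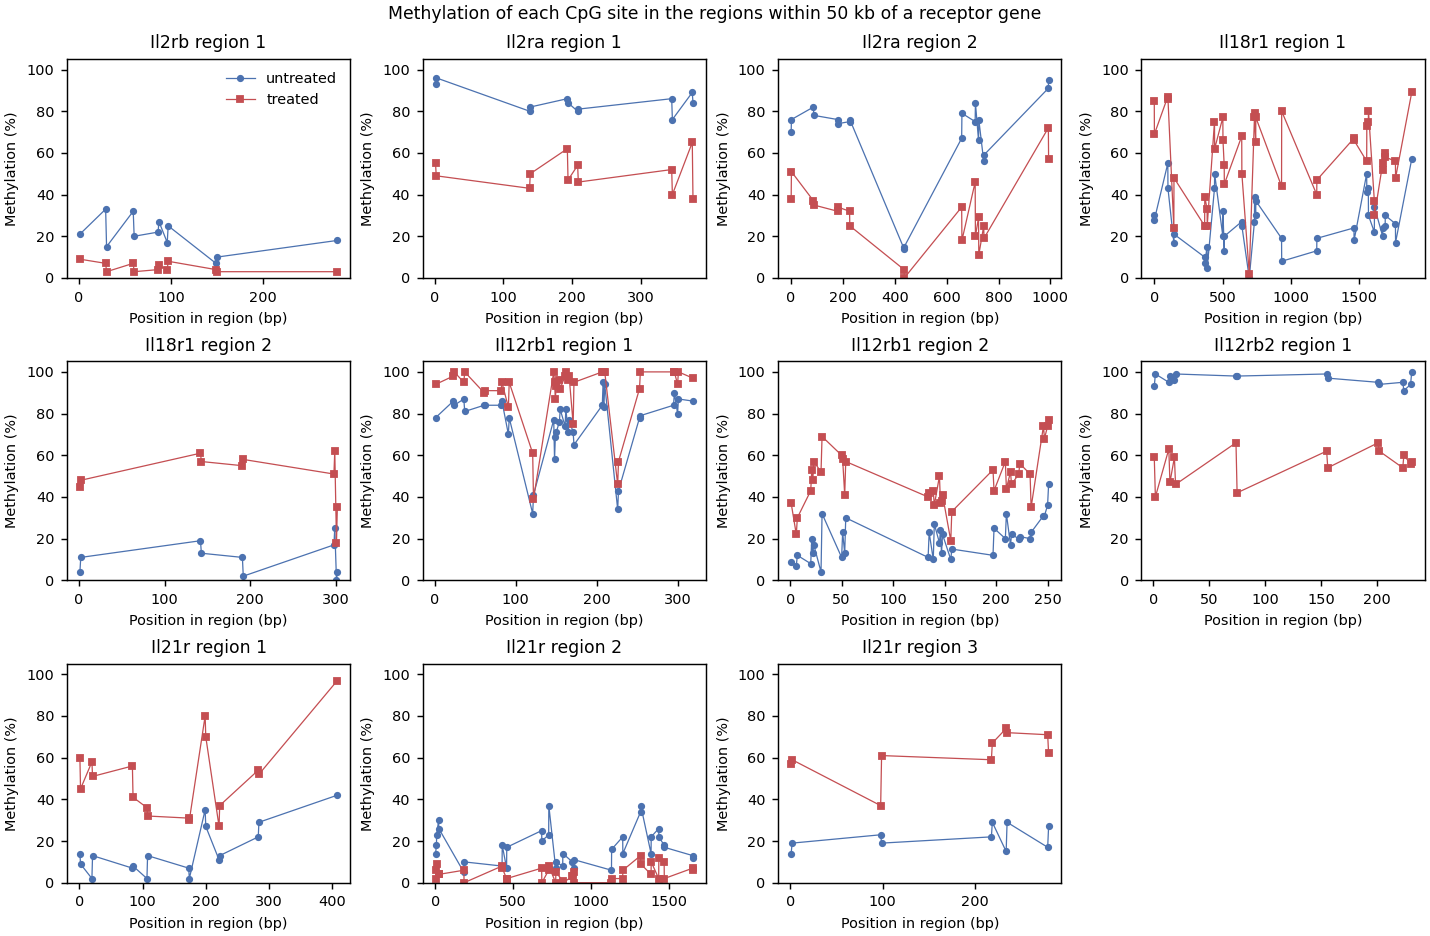
Methylation (percent, y axis) of every CpG site by its position in the region (bp, x axis) for the 11 regions within 50 kb of a receptor gene, in untreated (blue circles) and treated (red squares) LiNKT cells; a region is numbered along the chromosome. Every site differs in the same direction in 8 of the regions, which were called on this same contrast. The exceptions are 1 site each in Il18r1 region 1 and Il12rb1 region 1 and 2 sites in Il21r region 2.

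Promoters were searched for the same 6 motifs: GAS (TTCNNNGAA), T-box (TCACACCT), RUNX (TGTGGTT), AP-1 (TGANTCA), NFAT (TGGAAA) and ETS (CCGGAAGT), on both strands, from 250 bases before to 50 after each RefSeq start. Entries were found for 7 of the 10 receptors, not for *Il2rb*, *Il12rb1* and *Il27ra*. A GAS element, the letters bound by STAT dimers, was found in those of *Il7r*, *Il12rb2* and 1 of the 3 starts of *Il18r1*, and in 8.30% of all promoters. RUNX was found in those of *Il7r* and *Il18r1* (5.27% of all promoters) and AP-1 in that of *Il17rb* (7.81%). NFAT was found in those of *Il18r1* and *Il2rg* (21.4%). T-box and ETS were found in none of them, and *Il2ra* and *Il21r* held no match.

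The accessibility of the receptor genes was read from the multiome, whose 167180637 fragments carry barcodes that end in 1 or in 2. No source used here says which ending is which group, so the endings are compared as such and with no group. There were 8565 barcodes of at least 1000 fragments with ending 1 (median 7104 fragments) and 7237 with ending 2 (median 8591), and 100 barcode sequences occurred with both endings. A share of 42.3% and 42.0% of the fragment ends lay within 2000 bp of the start of a protein-coding gene.

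*Il2rb* was the most accessible receptor at its start, with 91.5 ends in ending 1 and 106 in ending 2 within 2000 bp, per 1000000 ends, above 97.2% of all start sites. *Il12rb1*, *Il27ra*, *Il12rb2* and *Il2ra* had 33.2 to 44.4 such ends in either ending. *Il17rb* had the fewest, 7.25 and 2.76, close to the median of all start sites (6.68 over both endings).

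The ratio of ending 2 over ending 1 was below 1 by 1.5-fold for 3 receptors and above it by 1.5-fold for 0. It was 0.626 (0.597 to 0.657) for *Il7r*, with 4550 and 2621 ends, 0.655 (0.624 to 0.688) for *Il18r1*, with 4311 and 2598 ends, and 0.380 (0.339 to 0.426) for *Il17rb*, with 1181 and 413 ends. Over 16328 protein-coding genes with at least 100 ends, 2.59% had 1.5-fold fewer and 12.1% 1.5-fold more ends in ending 2. The other 7 receptors had ratios from 0.804 (*Il12rb2*) to 1.19 (*Il12rb1*), *Il2rb* 1.16 and *Il2rg* 1.03. The whole gene bodies of *Il7r* and *Il18r1* had ratios of 0.641 and 0.786. The share of barcodes with an end near the *Il7r* start was 20.5% with ending 1 and 14.2% with ending 2, and for *Il18r1* 18.9% and 14.3%.

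**Figure D5:**
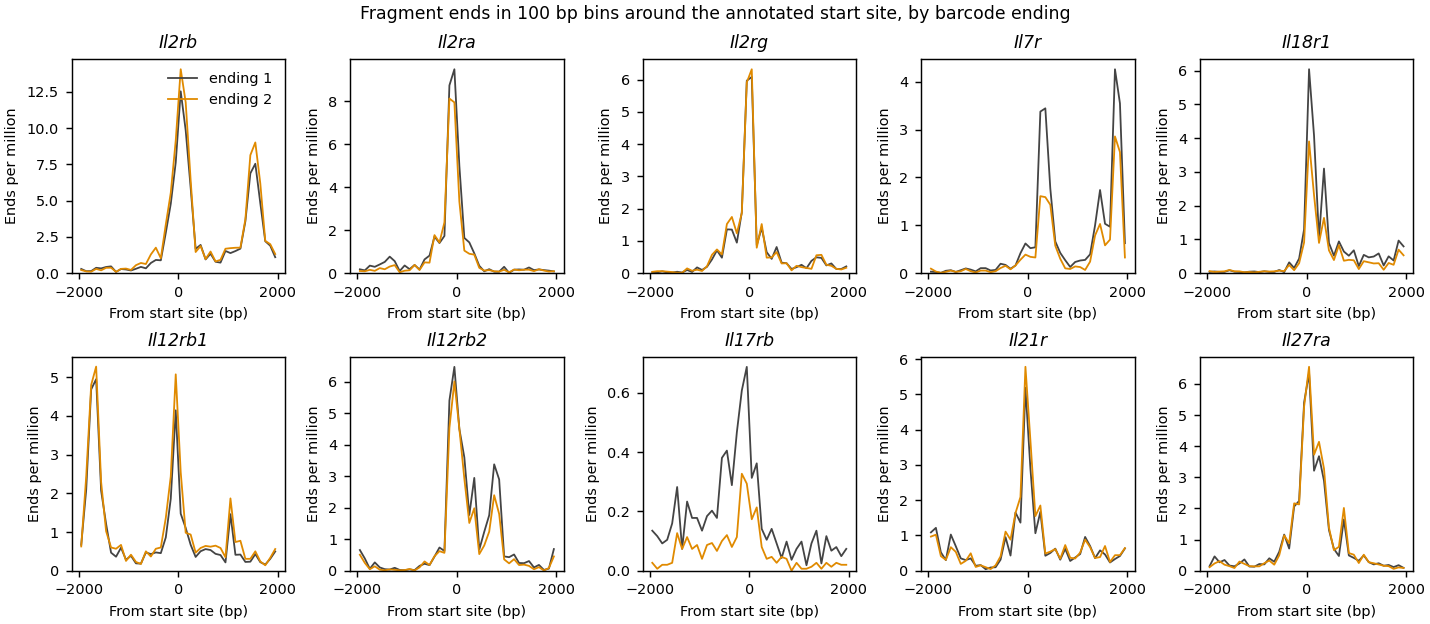
Fragment ends per 1000000 ends in bins of 100 bp (y axis) by distance from the annotated start (bp, x axis) for the 10 receptor genes, barcodes of ending 1 (grey) and ending 2 (orange) with at least 1000 fragments; y axes differ. The endings run together for Il2rg (ratio 1.03) and Il27ra, and ending 2 lies lower for Il7r, Il18r1 and Il17rb.

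The regions of different methylation were also counted. Ending 2 had more ends than ending 1 in both *Il2ra* regions (ratios 2.38, 1.48 to 3.90, and 2.42, 2.18 to 2.69), in the *Il2rb* region (1.87, 1.62 to 2.15) and in the *Il12rb2* region (2.75, 1.48 to 5.39). It had fewer in both *Il18r1* regions (0.675 and 0.836) and in *Il21r* regions 1 and 3 along the chromosome (0.636 and 0.544), and a ratio of 1.06 in region 2. The *Il12rb1* regions had 2.93 and 0.694. Over 2661 regions with at least 20 ends, 59.6% had 1.5-fold more and 19.7% 1.5-fold fewer ends in ending 2, with a median ratio of 2.14. The downstream *Il18r1* region, printed above, was the most accessible of the 11, with 34.2 and 28.6 ends per kilobase on that scale.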

How the data were processed

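The receptors, gene lists and motifs were chosen with earlier results of these data known. Members are the listed genes, and further genes are named by a rule: per list the 2 highest and 2 lowest log2 ratios among genes of at least 500 summed counts, and genes most alike a receptor at a Pearson r of 0.3 or more; other names were chosen after their values were seen.

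SmartSeq2 count values are those deposited by the authors, who aligned reads with STAR to GRCm38 and counted them per gene and cell. The library has no molecular identifiers, so intervals cover counting error only. A fold limit from a count of 0 bounds summed reads and not cells, since a single cell can hold many reads. Counts were summed over the cells of the published annotation (525 entries, 524 different cells); 11 untreated and 31 treated cells were left out. Genes took symbols by identifier without version (55141 of 55401). The log2 ratio used CPM plus 1; shares have exact 95% binomial intervals, and the limit given in the text for 0 cells is 3 cells of the total, which is lower than the end of the exact interval drawn in the plots. Single cells were sorted into wells, and no doublet caller was run. TMM factors came from edgeR 4.0.16.

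Methylation fraction values were deposited by the authors per cytosine, rounded to 2 decimals; depth is unknown; reads had been mapped to mm10 with BSMAP and regions called with metilene. How the replicates of a group were pooled is not stated in the sources used here. The authors' q-value and difference columns entered no value; the sign of the difference was seen when the 2 columns of region means were assigned, which follow the order in the table's title and match the named site columns. CpG sites were recognised on GRCm38.p6 (samtools 1.23.1) and averaged; means differed from the authors' region means by up to 4.79 points. Gene models were GENCODE M21.

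Fragment count values were deposited by the authors after alignment and removal of duplicates by Cell Ranger ARC, and their ends mark insertions. Both ends of a fragment were counted in barcodes of at least 1000 fragments. Scripts were tested on simulated data. Protein sequences were not used here.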

Additional observations from a re-analysis of the deposited data

Results flagged for a closer look

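*Il7r* and *Il12rb2* differed by 2-fold or more in opposite directions in the 2 sub-clusters that both groups hold, which flagged them. The log2 ratio of treated over untreated *Il7r* was -1.46 in sub-cluster 2 and 6.49 in sub-cluster 4, where it was read in 0 of 43 untreated cells (a share of up to 6.98% is allowed) and 9 of 133 treated cells (6.77%). With the limit of 3 counts, the treated level in sub-cluster 4 was at least 838-fold higher, but the share lies under the limit, so that a difference in the share was not detectable at this number of cells. The log2 ratio of *Il12rb2* was -5.95 in sub-cluster 2, with reads in 31 of 228 untreated cells and 1 of 61 treated cells, and 1.69 in sub-cluster 4, with reads in 2 of 43 and 16 of 133 cells. The differences between sub-clusters were not tested, since each group is 1 pooled sample.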

How the results depend on the processing

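No paired analysis was possible because each group is 1 pooled sample and no replicate block can be fitted. The count of receptors lower by 2-fold in treated cells (4) was 7 at 1.5-fold, 7 without cells with NK marker reads, 5 in sub-cluster 2 alone (*Il7r*, *Il17rb*, *Il12rb2*, *Il21r* and *Il27ra*, without *Il2ra* and *Il18r1*), where 0 were higher, and 1 in sub-cluster 4 alone, where 4 were higher. Of all genes, 24.5%, 25%, 33.9% and 17.9% were lower under these settings in that order, and 37.5% were higher in sub-cluster 4. The NK marker setting leaves out 66 untreated and 134 treated cells, 102 of the latter from sub-cluster 4, so it changes the mixture of sub-clusters. In sub-cluster 2, *Il2ra* was also past 2-fold once cells with macrophage, hepatocyte or B cell marker reads were left out. *Il7r* and *Il18r1* reversed in sub-cluster 4 (log2 ratios 6.49 and 2.80), where 0 and 1 of 43 untreated cells had reads. *Il12rb2*, lower by less than 2-fold over all annotated cells, was also higher there (1.69). *Il17rb* had no reads in sub-cluster 4 and no value there. Of 149 alternative log2 ratios of single receptors, 6 had the opposite sign and 91 lay outside counting error in the same direction. With at least 20 CpG sites, 3 regions near receptors were higher and 2 lower in treated cells; with a difference of at least 20 points, 3 were lower. All 22 alternative methylation values lay within the SD over sites. They reuse the same sites (strands averaged first, or only CpGs listed on both strands), so they could hardly differ and are no check of the regions. The receptors with 1.5-fold fewer ends in ending 2 numbered 3 under all 4 chromatin alternatives. Leaving out marker cells, single cells or a lane for shares was added after the data were seen; the causes of the changes were not tested.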
